A study of Mus musculus with 18 samples.

Results

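Clostridia outside the family Lachnospiraceae were a sparse layer of the stool bacteria of peanut-sensitized mice. They comprised 38 of the 419 sequence features of the table and 442 of its 43267 counts, or 1.02%. The members were all features whose class was given as Clostridia and whose family was not Lachnospiraceae, a rule that uses the authors' names and no counts. Features with no family name were included. The features fell into 8 named families in 5 orders, and 1 feature had no order or family name. Stool came from 18 mice of the N2 generation of a cross of C57BL/6 with C3H/HeJ mice, taken after 6 weeks of sensitization to peanut. The labels called 6 mice susceptible and 12 mice resistant to oral anaphylaxis, a severe systemic reaction after an allergen is eaten. Both groups were sensitized, so no group shows the stool of an unsensitized mouse, and hybrid mice of this kind differ from one another in genotype. Sex, age, cage and litter are not given in the sources used here.

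Clostridia are mostly strict anaerobes of the large bowel that ferment dietary fibre and host glycans to short-chain fatty acids. Bowel Clostridia are known in mice for inducing regulatory T cells and for limiting sensitization to food allergens. Lachnospiraceae and the order Oscillospirales, which holds Oscillospiraceae, Ruminococcaceae and Butyricicoccaceae, are the usual Clostridia of mouse stool. Several other lineages are known mainly from sequences of the 16S rRNA gene, the conserved gene by which bacteria are identified, and have few or no cultured members. Each feature is named by its genus or family, followed by F- and the start of its identifier in the table.

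Library totals ran from 673 to 3905 counts per mouse, and 2 libraries, resistant mouse 3 and resistant mouse 5, held fewer than 1500. A single count was worth 0.0256% to 0.149% of a mouse's total. A count of 0 allowed a share of up to 3 counts, that is 0.0768% in the deepest and 0.446% in the shallowest library. These limits and all intervals reflect counting error alone, because reads copied by PCR were not traced to single molecules. All values are shares of a mouse's reads, so fewer cells of a family and more cells of the others cannot be told apart. The smallest value above 0 among the members was 2 counts. None of their 57 values above 0 was a count of 1, and Lachnospiraceae, the other Clostridia, had 2 among 370. The whole table had 93 among 1110, of which Muribaculaceae held 85.

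The label of minor families matched the data: in no mouse did the members reach 2% of counts. Their summed share was 1.90%, 1.11%, 0.800%, 1.41%, 0.826% and 0.615% in susceptible mice 1 to 6, all above 0. In resistant mice it ran from 0% to 1.89% with a median of 0.854%. It exceeded 1% in 3 of 6 susceptible and 6 of 12 resistant mice. Low values lay in the resistant group: 5 of its 12 mice fell below the lowest susceptible mouse, and the groups otherwise overlapped. Means were 1.11 ± 0.478% (SD, n = 6) and 0.882 ± 0.713% (SD, n = 12), and the difference of 0.228 percentage points was smaller than either SD. This sum was given no test because its members were chosen with earlier results known.

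**Figure D1:**
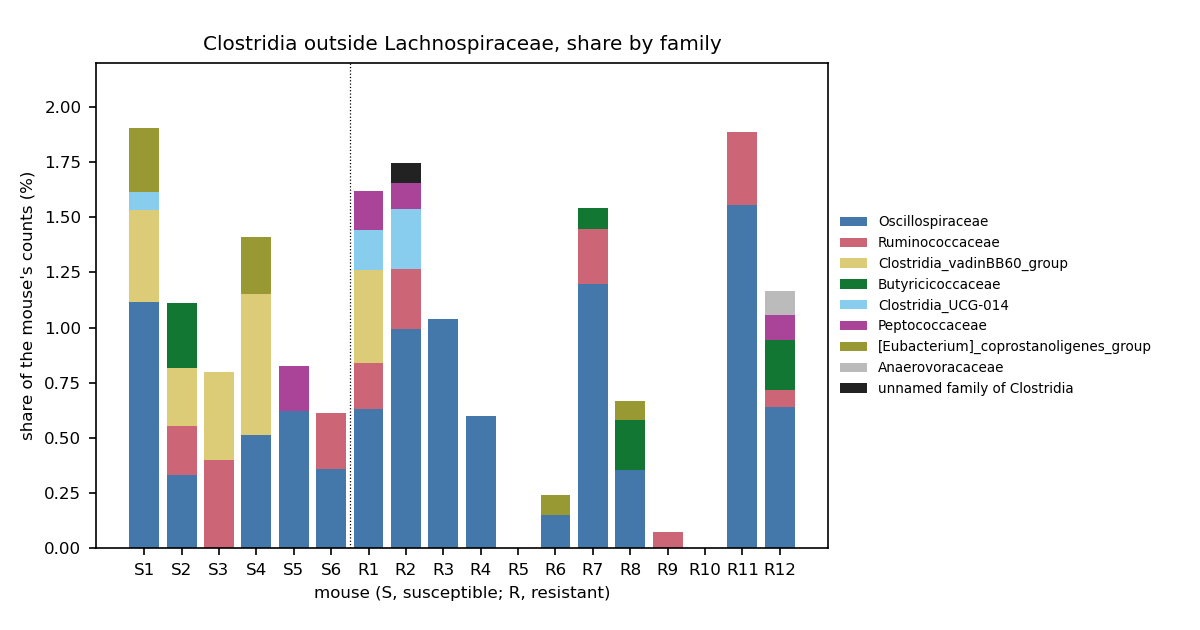
Stacked bars give the percentage of each mouse's counts in each member family, for susceptible mice S1 to S6 and resistant mice R1 to R12. Shares reach 1.90% in S1 and 1.89% in R11, and R5 and R10 have no bar.

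No member was counted in 2 resistant mice. Resistant mouse 5 had 0 of 1160 counts, which allows a share of up to 0.259%, and resistant mouse 10 had 0 of 1923, which allows up to 0.156%. The lowest share above 0 was that of resistant mouse 9, at 0.0743%, with 2 counts (exact 95% binomial interval 0.00900% to 0.268%). The highest, in susceptible mouse 1, had an interval of 1.40% to 2.53%. Of the class Clostridia alone, the members made up 2.83 ± 2.86% (SD, n = 6) in the susceptible group and 1.79 ± 1.26% (SD, n = 12) in the resistant group. The first of these means rested on susceptible mouse 4, where Clostridia were only 16.5% of all counts and the members 8.56% of Clostridia. The other 5 susceptible mice ran from 1.26% to 2.68%. Without mouse 4 the direction turned, with a susceptible mean of 1.69 ± 0.601% (SD, n = 5), below the resistant mean. The medians of all mice, 1.62% and 2.36%, also had the resistant group higher.

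Every susceptible mouse carried at least 2 named families, and resistant mice ranged more widely. Susceptible mice 1 to 6 had 4, 4, 2, 3, 2 and 2 families. Resistant mice had from 0 to 5, with a median of 2, and both the emptiest and the 2 richest mice (resistant mice 1 and 12, with 5 families) were resistant. Means were 2.83 ± 0.983 families (SD, n = 6) and 2.25 ± 1.76 (SD, n = 12). The difference of 0.583 families was smaller than either SD and was given no test.

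Within the resistant group, depth moved with these numbers. The 5 resistant mice with 0 or 1 family had library totals from 673 to 2691 counts (median 1507), and the 7 with 2 or more had 2246 to 3330 (median 3176). Clostridia made up 11% to 45.7% of counts in the first set and 29.4% to 77.3% in the second. Susceptible mice showed no such order, with 2 families in the deepest library (3905 counts) and 3 in the shallowest (1561). The part of depth and of total Clostridia in the low family numbers was not tested. Without the 2 libraries under 1500 counts the difference between groups shrank from 0.583 to 0.233 families, and from 0.75 to 0.267 in member features per mouse. At an equal depth of 673 counts, the expected number of families averaged 2.54 ± 0.797 for susceptible mice (SD, n = 6) and 1.76 ± 1.40 for resistant mice (SD, n = 12).

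**Figure D2:**
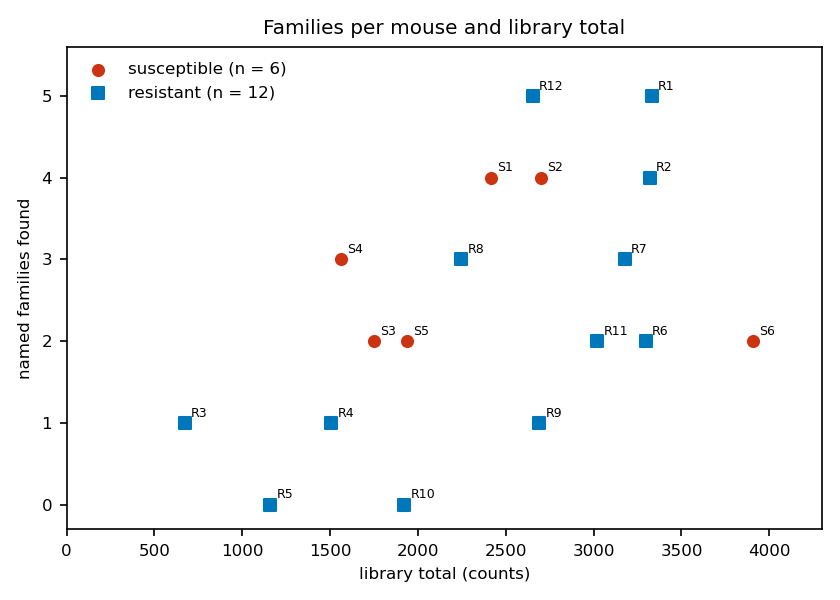
Each point is a mouse, with its library total in counts on the x axis and the number of named member families found on the y axis. Mice with 0 or 1 family are all resistant, and the deepest library, S6 with 3905 counts, held 2 families.

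Most members belonged to a single mouse. Of the 38 features, 28 (73.7%) were found in 1 mouse, against 58.2% of all 419 features and 53.0% of the 132 Lachnospiraceae features. Such single-mouse features held 45.7% of the members' counts, against 5.83% in Lachnospiraceae. The most widespread members were found in only 4 mice, while the most widespread Lachnospiraceae feature was found in all 18. Counts were also lower: the median value above 0 was 6 counts in the members and 25 in Lachnospiraceae, and the part of low counts in the number of single-mouse features was not tested.

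The features were spread over both groups. Among the members, 9 features were found in susceptible mice alone, 20 in resistant mice alone and 9 in both, with 12 resistant mice to 6 susceptible. Of all 419 features, 20.5% were found in susceptible mice alone and 47.3% in resistant mice alone, and the members' counts lay near these shares. A larger share of susceptible than of resistant mice carried 15 of the 38 members, close to the background of 36.8% of all features. Mice carried 3.67 ± 1.03 member features (SD, n = 6) in the susceptible and 2.92 ± 2.39 (SD, n = 12) in the resistant group. Up to 6 were found together, in resistant mice 2, 11 and 12.

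**Figure D3:**
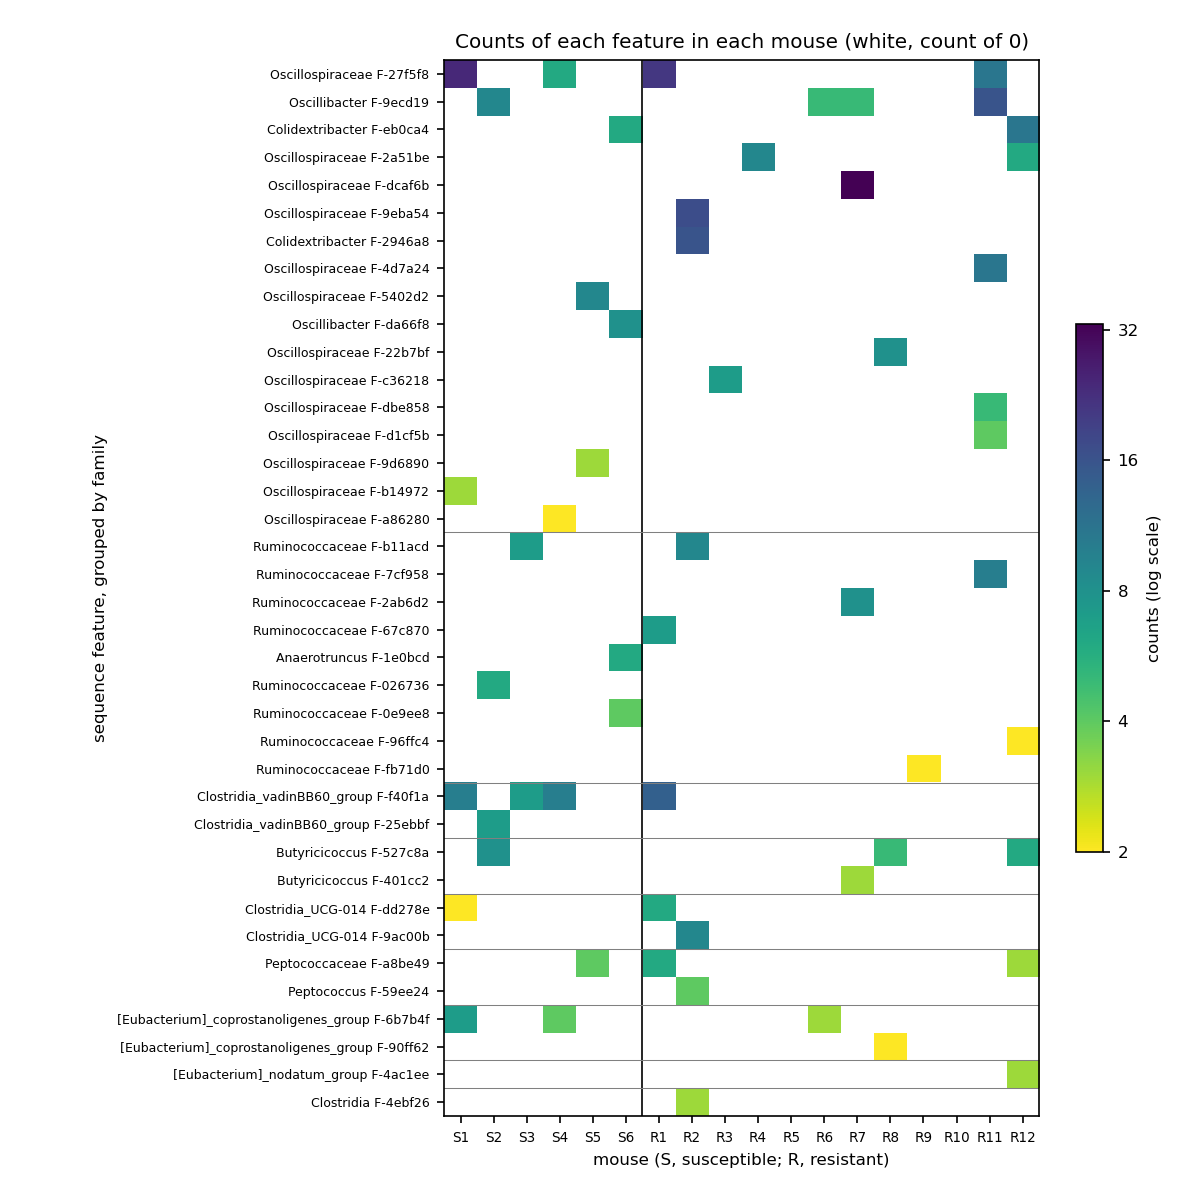
Colour gives the counts (log scale) of each of the 38 member features in each of the 18 mice, grouped by family, with white for a count of 0. Most rows hold 1 coloured cell, and the fullest rows hold 4.

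Oscillospiraceae, strict anaerobes that include the genera Oscillibacter and Colidextribacter, made up most of the members, with 17 of the features and 57.7% of the counts. The family was found in 5 of 6 susceptible mice, at 1.12% in mouse 1, 0.333% in mouse 2, 0.512% in mouse 4, 0.620% in mouse 5 and 0.359% in mouse 6, with a count of 0 in mouse 3. It was found in 9 of 12 resistant mice, where shares ran from 0% to 1.56% with a median of 0.614%. The groups overlapped over most of their range. Means were 0.490 ± 0.372% (SD, n = 6) and 0.597 ± 0.519% (SD, n = 12), and the family did not pass the test (adjusted p = 0.933, edgeR).

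Different features stood behind this family in different mice, and 13 of its 17 were found in 1 mouse. The most abundant, Oscillospiraceae F-27f5f8 of an uncultured genus, had 24 counts (0.994%) in susceptible mouse 1 and 6 (0.384%) in susceptible mouse 4. It had 21 counts (0.631%) in resistant mouse 1 and 11 (0.364%) in resistant mouse 11. Oscillibacter F-9ecd19, of a genus described for valerate production, had 9 counts in susceptible mouse 2. Its resistant carriers were mice 6, 7 and 11 with 5, 5 and 16 counts. The highest single count of any member, 33 counts (1.04%), belonged to Oscillospiraceae F-dcaf6b in resistant mouse 7 alone. Oscillospiraceae F-9eba54 (17 counts) and Colidextribacter F-2946a8 (16 counts) were both found only in resistant mouse 2. Colidextribacter F-eb0ca4 had 6 counts in susceptible mouse 6 and 11 in resistant mouse 12, and Oscillospiraceae F-2a51be had 9 in resistant mouse 4 and 6 in resistant mouse 12. As whole genera, Oscillibacter was carried by 2 of 6 and 3 of 12 mice. Uncultured Oscillospiraceae were carried by 2 of 6 and 7 of 12.

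Ruminococcaceae, a family known for fibre-degrading bacteria, was found equally often, in 3 of 6 susceptible and 6 of 12 resistant mice. Its share was 0.222%, 0.400% and 0.256% in susceptible mice 2, 3 and 6, and 0.0743% to 0.331% in the resistant carriers. In all 9 mice at 0 the limit of 3 counts (0.0910% to 0.446%) lay above the lowest carrier's share, so a share of that size was not excluded there. Of its 9 features, 8 were found in 1 mouse. The exception, Ruminococcaceae F-b11acd, carried the species name Acutalibacter muris, a bacterium isolated from the mouse gut. It had 7 counts in susceptible mouse 3 and 9 in resistant mouse 2. Mean shares of the family were 0.146 ± 0.171% (SD, n = 6) and 0.101 ± 0.128% (SD, n = 12), with an adjusted p of 0.623 (edgeR).

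Clostridia_vadinBB60_group, a lineage known from environmental clone sequences, was the family with the most uneven carriage, in 4 of 6 susceptible mice and 1 of 12 resistant mice. Susceptible mice 1 to 4 had 10, 7, 7 and 10 counts, or 0.414%, 0.259%, 0.400% and 0.641%. Susceptible mice 5 and 6 had 0. Resistant mouse 1, with 14 counts (0.420%), lay within the range of the susceptible carriers. In 13 mice the family had a count of 0. The exact 95% upper bound lay above the lowest carrier's share of 0.259% in resistant mouse 3 (0.547%) and resistant mouse 5 (0.318%), so a share of that size was not excluded there. By the limit of 3 counts given above, only resistant mouse 3 (0.446%) lay above that share. The family held 2 features: F-f40f1a accounted for susceptible mice 1, 3 and 4 and resistant mouse 1, and F-25ebbf for susceptible mouse 2. Presence did not pass the test over all families (two-sided Fisher's exact p = 0.0217, adjusted p = 0.261).

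Butyricicoccaceae, here the butyrate-producing genus Butyricicoccus alone, was found in 1 of 6 susceptible mice and 3 of 12 resistant mice. Susceptible mouse 2 had 8 counts (0.296%), and resistant mice 7, 8 and 12 had 3, 5 and 6 (0.0945%, 0.223% and 0.226%). The feature Butyricicoccus F-527c8a gave all of these but the 3 counts of resistant mouse 7. [Eubacterium]_coprostanoligenes_group, named after a bacterium that reduces cholesterol to coprostanol, was found in 2 of 6 and 2 of 12 mice. Its shares were 0.290% and 0.256% in susceptible mice 1 and 4, and 0.0910% and 0.0890% in resistant mice 6 and 8, so that susceptible carriers lay above resistant carriers, with 2 mice each and 2 to 7 counts behind each share.

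The remaining families were rarer still. Peptococcaceae, anaerobes that include the peptide-fermenting genus Peptococcus, was found in 1 of 6 and 3 of 12 mice with 3 to 6 counts each. Clostridia_UCG-014, a lineage with no cultured genus name, was found in 1 of 6 and 2 of 12 mice, at 2 counts in susceptible mouse 1 and 6 and 9 counts in resistant mice 1 and 2. Anaerovoracaceae, represented by [Eubacterium]_nodatum_group, had 3 counts in resistant mouse 12 alone. The feature with no family name had 3 counts in resistant mouse 2 alone. For Clostridia_UCG-014, 14 of the 15 mice at 0 had a limit above the lowest carrier's share of 0.0828%, so a share of that size was not excluded there. Against their own lowest carriers, the same held for 13 of 14 mice at 0 for [Eubacterium]_coprostanoligenes_group and 10 of 14 for Butyricicoccaceae. It also held for 8 of 14 for Peptococcaceae and 3 of 4 for Oscillospiraceae.

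**Figure D4:**
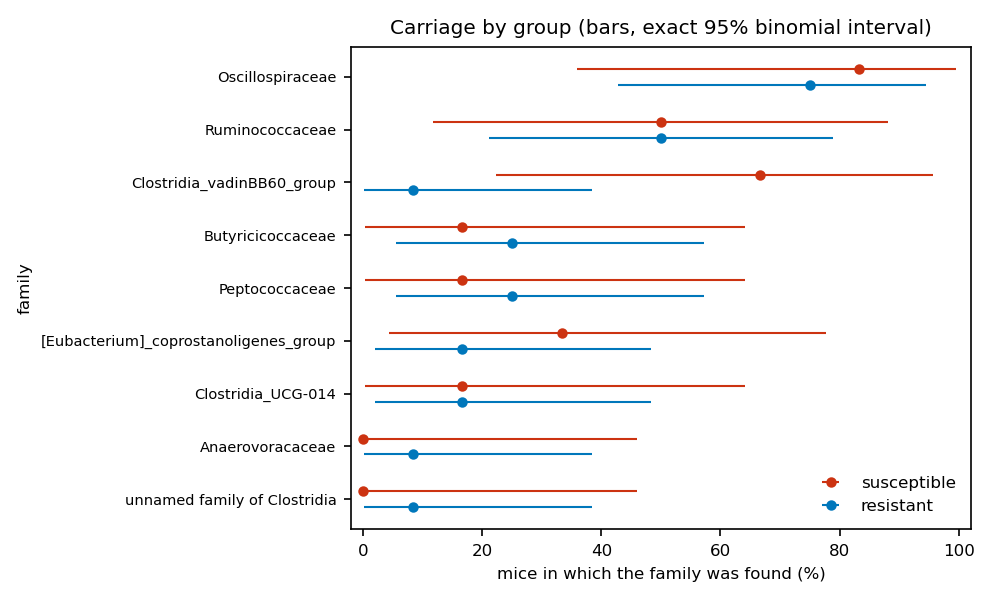
Points give the percentage of susceptible (n = 6) and resistant (n = 12) mice in which each member family was found, with exact 95% binomial intervals as bars. Intervals of the groups overlap for every family, including Clostridia_vadinBB60_group at 66.7% (22.3% to 95.7%) and 8.33% (0.211% to 38.5%).

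Of the 9 family categories, counting the unnamed one, 3 were carried by a larger share of susceptible mice, 4 by a larger share of resistant mice and 2 by equal shares. Of all 28 families, 39.3% were carried by a larger share of susceptible mice. In the presence test of families, 0 of 6 members tested passed, and 0% of the 12 families tested overall passed (Fisher's exact test). Among genera 0 of 6 members passed, against 5% of the 20 tested, and among features 0 of 3, against 0% of 84. At an unadjusted p under 0.05 the presence test named Clostridia_vadinBB60_group alone among the member families (lowest adjusted p of any family with 1 mouse left out 0.0693, Fisher's exact test).

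Abundance was compared by edgeR's quasi-likelihood test over whole tables of orders, families, genera and features. No member family passed: 0 of 6 tested were called, and 0% of the 16 families tested overall. Clostridia_vadinBB60_group had a log2 fold change, susceptible over resistant, of 4.12 ± 1.43 (SE, adjusted p = 0.101, edgeR). The median over all families was 1.43 with TMM scaling, 0.18 with library totals and -0.090 with DESeq2 size factors. Under the same scalings Clostridia_vadinBB60_group had 4.12, 2.76 and 2.62. [Eubacterium]_coprostanoligenes_group had 2.07, 2.17 and 1.27, with no adjusted p under 0.488. Ruminococcaceae had 1.46, 0.48 and -0.078, Oscillospiraceae 0.10, -0.28 and -0.81, and Peptococcaceae 0.73, -0.10 and 0.043. DESeq2 called 0 member families (0 at an unadjusted p under 0.05), and limma, fitted to centred log-ratios, also called 0 (1 unadjusted).

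Butyricicoccaceae showed how far the scaling reached at these counts. Its 22 counts gave a log2 fold change of 2.38 ± 1.61 in the table of families and, as the genus Butyricicoccus, -0.78 ± 1.59 in the table of genera (adjusted p = 0.488 and 0.982, edgeR). With library totals alone both tables gave 0.11. The TMM factor of susceptible mouse 2, its only susceptible carrier, was 0.178 among families, the lowest of any mouse, and 1.59 among genera.

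In the table of orders Clostridia_vadinBB60_group, which is its own order, passed the threshold with a log2 fold change of 3.72 ± 1.32 (SE, adjusted p = 0.0257, edgeR). It was 1 of 3 member orders tested, against a background of 22.2% of the 9 orders. The median log2 fold change over all 9 was 1.07 with TMM scaling, 0.25 with library totals and 0.30 with DESeq2 size factors. With TMM, 88.9% of the orders were positive. The TMM factor of susceptible mouse 2, a carrier, was 0.273 among orders, the lowest of any mouse. The 48 counts of Clostridia_vadinBB60_group are the same as at the family and genus levels, where the adjusted p was 0.101 and 0.384 (edgeR). The call thus belonged to the table of orders and is no second observation. The order's 4 susceptible carriers met the filter of 4 mice by themselves, so the call cannot decide whether the groups differ. It was lost with library totals (log2 fold change 2.73, adjusted p = 0.254, edgeR), with DESeq2 (adjusted p = 0.447) and with limma on centred log-ratios (1.80, adjusted p = 0.224). It was also lost without a filter (2.91, adjusted p = 0.204, edgeR) and without the 2 libraries under 1500 counts (2.12, adjusted p = 0.470, edgeR). A filter of 10 counts and 2 mice kept it (3.78, adjusted p = 0.0327, edgeR). Leaving out 1 mouse ended the call for 9 of the 18 mice: susceptible mice 1 to 5 and resistant mice 2, 3, 7 and 12 (log2 fold change over all 18 from 2.2 to 5.48, adjusted p from 0.00523 to 0.398, edgeR). The highest fold change and the lowest adjusted p came without resistant mouse 1, the order's only resistant carrier.

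With the title's number added as a covariate, a number whose meaning the labels do not give, Clostridia_vadinBB60_group passed as an order (adjusted p = 0.00109), a family (0.00382) and a genus (0.0290, edgeR). It was also called at these levels without resistant mouse 1, its only resistant carrier. There it met the filter through susceptible mice alone, and its fold changes stand against no resistant count. With the covariate too, its 4 susceptible carriers met the filter of 4 mice by themselves. These calls therefore cannot decide whether the groups differ. As a family Clostridia_vadinBB60_group also passed without susceptible mouse 6 (log2 fold change 4.44, adjusted p = 0.0486, edgeR), where the same limit holds. Oscillospirales had an order-level log2 fold change of 0.45 ± 0.92 with TMM and -0.28 with DESeq2 size factors, and mean shares of 0.777 ± 0.346% (SD, n = 6) and 0.758 ± 0.617% (SD, n = 12). Peptococcales had 0.31 ± 1.57 with TMM and -0.14 with library totals. Neither passed (both adjusted p = 0.860, edgeR), and with TMM both lay below the median of 1.07 over all orders.

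Among genera 0 of 6 members tested were called, and 0% of the 26 tested overall. Among features 0 of 3 members were called, and 0% of 83. The 3 members were those found in 4 mice with 10 or more counts, 35 others being too rare for a test. Clostridia_vadinBB60_group F-f40f1a had a log2 fold change of 2.77 ± 1.54, Oscillospiraceae F-27f5f8 of 0.83 ± 1.72 and Oscillibacter F-9ecd19 of -1.02 ± 1.82 (SE, all adjusted p = 0.964, edgeR). The value of F-9ecd19 was 0.15 with no filter.

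Some members were found together. Of 45 pairs among the 10 members found in 2 or more mice, 26 shared no mouse, 14 shared 1 and 5 shared 2 or more. The closest pair was Oscillospiraceae F-27f5f8 and Clostridia_vadinBB60_group F-f40f1a, each found in 4 mice and together in susceptible mice 1 and 4 and resistant mouse 1. Clostridia_UCG-014 F-dd278e was found in susceptible mouse 1 and resistant mouse 1, both of which held that pair. [Eubacterium]_coprostanoligenes_group F-6b7b4f was found in susceptible mice 1 and 4, which also held it, and in resistant mouse 6. All 5 pairs that shared 2 or more mice came from these 4 features. Oscillospiraceae and Ruminococcaceae, the most widespread families, occurred together in 7 mice. These counts are descriptions over 18 mice that differ in depth, with no test.

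Members were also read by role, from lists of names at order, family or genus rank. Of 10 names of butyrate producers 4 were found, covering Butyricicoccus, Oscillibacter and Anaerotruncus with 5 features and 71 counts. Of these counts 43 were Oscillibacter, the genus described above for valerate production, and 22 were Butyricicoccus. The mean summed share of this list came to 0.165 ± 0.269% for susceptible mice (SD, n = 6) and 0.115 ± 0.167% for resistant mice (SD, n = 12). Its features were found in 2 of 6 and 5 of 12 mice. The list of lineages named by clone or number matched Clostridia_vadinBB60_group, Clostridia_UCG-014 and Incertae_Sedis. Its summed share averaged 0.366 ± 0.335% (SD, n = 6) and 0.102 ± 0.221% (SD, n = 12), and it was found in 4 of 6 and 3 of 12. Of its 83 counts, 48 were Clostridia_vadinBB60_group and 18 were Ruminococcaceae under Incertae_Sedis, which is no clone or number name. Those 18 include Ruminococcaceae F-b11acd, the feature named Acutalibacter muris. The fibre degraders, cholesterol reducers, Oscillospiraceae and Peptococcaceae lists each matched only the family already described. No feature carried the names Clostridiaceae, Peptostreptococcaceae or Christensenellaceae. The lists' shares were given no test.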

How the data were processed

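Stool DNA was amplified across the V1-V3 region of the 16S rRNA gene and sequenced on a MiSeq, per the labels' protocols. The deposited table holds whole-number counts of each feature in each mouse, apparently not normalized. A second table gives taxonomic names. Denoising, filters, classifier and reference database are not given in the sources used here, and these steps set which rare features and names exist. Sequences were not used here.

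All 419 features matched a name. Counts were summed by order, family and genus; an unnamed rank was summed under the lowest named rank. Abundance of taxa with a total of 10 or more counts and 4 or more carriers was tested with edgeR 4.0.16 (quasi-likelihood, TMM; standard errors from the fold change and F statistic), limma 3.58.1 and DESeq2 1.42.0 in R 4.3.3 serving as alternatives. Presence in 4 to 14 mice was tested with Fisher's exact test (scipy 1.17.1). P-values were Benjamini-Hochberg adjusted over each whole table, threshold 0.05. Sums over members were described without a test. Expected family numbers used the hypergeometric formula at 673 counts. Intervals are exact binomial at 95%. The count test was checked on simulated data with counts scaled well above those here, a check that does not cover counts as low as the members'. All 81 within-group pairs of libraries differed beyond counting noise (lowest chi-square per degree of freedom 11). This cannot show that libraries came from different mice, and each was taken as 1 mouse. Mice were numbered in accession order within a group.

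Members, lists and tests were chosen with earlier results of these data known. Named here were every member family, tested order, genus in 4 or more mice and tested feature, and the 10 members with most counts; others, such as F-25ebbf, were named after their values were seen.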

Additional observations from a re-analysis of the deposited data

Results flagged for a closer look

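In the susceptible group, 11 measures were examined for a mouse far from the other 5. Chance alone marks about 1 in 20 such groups, a rate that does not apply to a family with 1 carrier, which is always marked. The members' share of Clostridia counts was 8.56% in susceptible mouse 4, the gap to the next mouse being 0.805 of the group's range. That mouse had a Clostridia share of 16.5%, the lowest of the susceptible mice. The other marked values each belong to the only susceptible carrier of a family, so that the gap equals the whole range: Butyricicoccaceae at 0.296% in susceptible mouse 2, Clostridia_UCG-014 at 0.0828% in susceptible mouse 1 and Peptococcaceae at 0.207% in susceptible mouse 5.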

How the results depend on the processing

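No paired analysis was possible because the labels give no numbers shared between the groups. The differences in summed share, families and features per mouse kept their sign under the alternatives run, with 1 exception in the share. With counts of class Clostridia as denominator that difference was 1.05 percentage points, and -0.10 with susceptible mouse 4 also left out, an alternative chosen after seeing the data. The medians with this denominator, not among these alternatives, had the resistant group higher with all mice kept (1.62% susceptible, 2.36% resistant). Of all counts, leaving out 1 mouse at a time, the difference in summed share ran from 0.0697 (without susceptible mouse 1) to 0.328. Of orders, 2 were called with TMM, 0 with library totals, DESeq2, limma or without the libraries under 1500 counts, and 1 without a filter (no member). With a filter of 2 mice 3 orders were called, and with the covariate 2, Clostridia_vadinBB60_group among them in both. With single mice left out 0 to 3 were called. Of families, 1 was called without a filter, with a filter of 2 mice (in both a family outside the members) and with the title number as covariate, and 0 to 1 with single mice left out. Of genera, 1 was called with limma, with a filter of 2 mice and with the covariate, and 0 to 1 with single mice left out. Of features, 64 of 419 were called without a filter, among them 8 of the 38 members. Each of these 8 was found in a single susceptible mouse and entered the test through it alone, so the calls cannot decide on a group difference. With a filter of 2 mice 10 features were called (0 members), and 0 to 1 with single mice left out. The 1 genus past the presence threshold, outside the members, was lost without the libraries under 1500 counts (0 called), and 0 to 1 were called with single mice left out. The causes were not tested.

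Uncalled log2 fold changes of members turned sign as follows. With DESeq2 they were -0.28 for Oscillospirales, -0.10 for Butyricicoccaceae, -0.81 for Oscillospiraceae and -0.078 for Ruminococcaceae. With library totals they were -0.14 for Peptococcales, -0.28 for Oscillospiraceae, -0.10 for Peptococcaceae and 0.11 for Butyricicoccus. With limma they were -0.83 for Peptococcales, -0.62 for Butyricicoccaceae, -0.29 for Oscillospiraceae, -0.75 for Peptococcaceae, -0.24 for Ruminococcaceae and -0.092 for Oscillibacter. Without the libraries under 1500 counts they were -0.060 for Oscillospirales, -0.20 for Peptococcales and -0.28 for Oscillibacter. Without a filter they were -0.026 for Oscillospiraceae and 0.15 for Oscillibacter F-9ecd19, and with a filter of 2 mice 0.64 for Butyricicoccus. With the covariate they were 0.59 for Butyricicoccus and 0.013 for Oscillibacter F-9ecd19. With single mice left out the ranges were -0.15 to 1.18 for Oscillospirales, -0.11 to 0.58 for Peptococcales, -0.84 to 0.92 for Oscillospiraceae, -0.34 to 1.12 for Peptococcaceae, -0.062 to 2.50 for Ruminococcaceae, -0.95 to 1.62 for Butyricicoccus, -0.73 to 1.28 for Oscillibacter, -1.47 to 0.45 for uncultured Oscillospiraceae, -1.40 to 0.71 for uncultured Ruminococcaceae and -1.14 to 0.19 for Oscillibacter F-9ecd19. Clostridia_vadinBB60_group stayed positive under all alternatives run, with single mice left out from 2.2 to 5.48 as an order, 3.0 to 6.36 as a family and 2.24 to 6.23 as a genus. At 442 counts over 18 mice, shares of rare families rest on 2 to 14 counts each.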

Other observations

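Mice often shared member families but seldom a member feature. Among 15 pairs of susceptible mice, 14 had at least 1 named member family in common and 3 at least 1 member feature. Among 66 pairs of resistant mice the numbers were 41 and 7, and among 72 pairs with 1 mouse of each group 53 and 16. The most member features that any pair had in common was 3. Every pair of mice shared Lachnospiraceae features, with a median of 5 in susceptible pairs, 5 in resistant pairs and 6 between the groups.

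Over the whole table, the presence pattern closest to Clostridia_vadinBB60_group F-f40f1a among features found in 3 or more mice was that of Oscillospiraceae F-27f5f8, with 3 mice in common of 5 that held either (Jaccard index 0.6). Lachnospiraceae_NK4A136_group F-0d3510 followed, with 3 shared mice and an index of 0.5. For Oscillibacter F-9ecd19 the closest were Lachnospiraceae F-4a572c and F-8eeb0b, each with 3 shared mice and an index of 0.5. These are descriptions over a few carriers.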
